A study of Mus musculus with 23 samples.

Results

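Described here are 10 genes that control or carry out fatty acid synthesis, measured by messenger RNA level in the circumvallate papilla of mice, a trench-walled papilla far back on the tongue that holds many taste buds. They are the sterol regulatory element-binding protein (SREBP) genes Srebf1 and Srebf2, the genes of their escort and anchors Scap, Insig1 and Insig2, the transcription factor genes Nr1h3 and Mlxipl, and the enzyme genes Fasn, Acaca and Acly. They were taken by the gene name printed beside each probe, with the brightest probe of a gene leading, and all 10 were among the 28224 genes kept for testing. The study hybridised RNA of 23 papilla samples from male C57Bl6/j mice to 1-colour Agilent arrays. Lean, with 7 samples, were mice given a standard chow with 3% fat by weight without limit, and DIO, with 8 samples, were mice given, also without limit, an obesogenic diet rich in saturated fatty acids. The 8 samples labelled DIO-R are read here as DIO mice whose energy was restricted to 60% of free intake, a reading that the labels do not spell out. No transgene or mutation is named for any group. The ages of the mice, the length of the diets, the hour of sampling and whether each sample is 1 animal are not given in the sources used here, so the p-values measure the spread between these samples.

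SREBPs are made as membrane proteins of the endoplasmic reticulum, where SCAP escorts them and INSIG proteins hold the complex back while sterols are plentiful. When the complex is released, SREBPs are cut in the Golgi and their freed part turns on genes of lipid synthesis, mainly fatty acid synthesis for the protein of Srebf1 and mainly cholesterol synthesis for that of Srebf2. In liver, insulin and LXR, the oxysterol receptor encoded in one of its forms by Nr1h3, raise Srebf1 expression, and ChREBP, encoded by Mlxipl, turns on the synthesis enzymes in response to glucose. An array reads messenger RNA and shows nothing of the cutting of SREBPs.

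Values are log2 spot intensities, from which each array's own 75th percentile was subtracted, so 0 is that percentile and 1 unit is a 2-fold step. Levels are compared between groups within a probe and not between probes. All 10 leading probes were well above background on 23 of 23 arrays. Markers of basal keratinocytes (Krt5, Krt14, Krt15), of differentiated keratinocytes (Krt4, Krt13, Krt1) and of taste cells (Trpm5, Plcb2, Gnat3) were well above background on all 23 arrays, and so were those of skeletal muscle (Acta1, Myh1, Myh2) and fibroblasts (Col1a1, Col1a2, Col3a1), tissues beneath the epithelium. In such bulk samples, fewer cells of a type and less RNA per cell cannot be told apart. The 23 arrays lie on 3 slides that each hold every group, and the values within each slide stand beside the results.

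Of the 10 genes, only Srebf1 passed the test, defined as limma with Benjamini-Hochberg adjustment over all 28224 genes and an adjusted p under 0.05, and only in DIO-R against Lean. In that comparison 0.128% of all genes passed, and 0.0531% passed as higher in DIO-R. At an unadjusted p under 0.05, Srebf1 was higher and Insig2 lower there, as were 4.44% and 4.51% of all genes. In DIO against Lean 0 of the 10 genes passed, where 0.00354% of all genes did, and 2 of the 10, Insig1 and Acly, had an unadjusted p under 0.05, both lower in DIO, as had 4.9% of all genes in that direction. In DIO-R against DIO 0 of the 10 passed, where 0.0602% of all genes did, and 6 of the 10 had an unadjusted p under 0.05, all with higher means in DIO-R, as had 5.94% of all genes in that direction. Array weights or the authors' value table brought Srebf1 past the threshold there too.

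**Figure D1:**
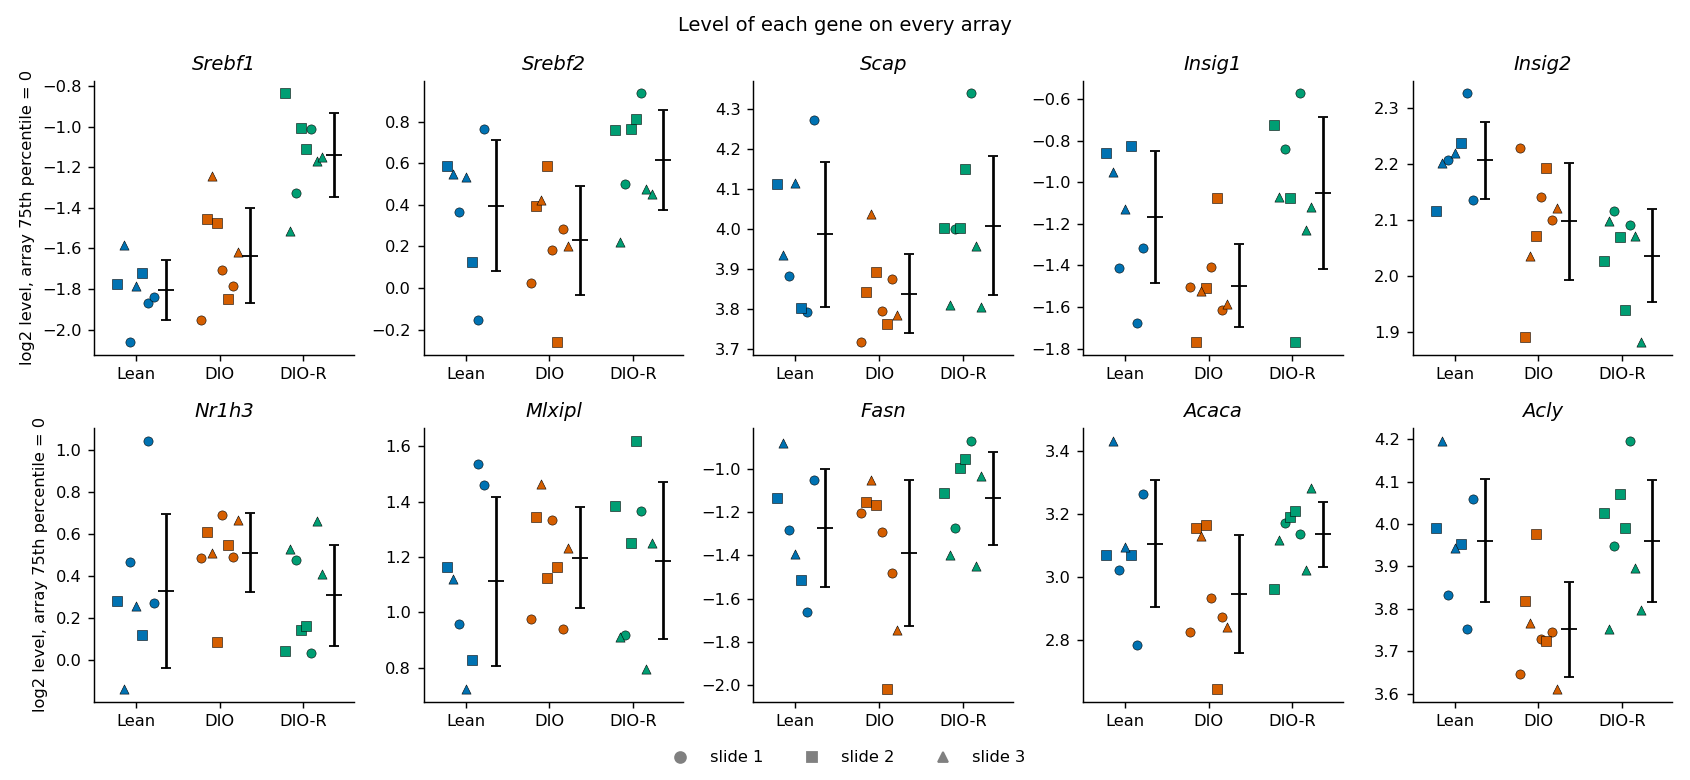
Log2 level of each of the 10 genes (vertical axes, 0 is the 75th percentile of the array) on the 7 Lean, 8 DIO and 8 DIO-R arrays, with the slide shown by the symbol; the bar at the right of each group is its mean ± SD. The Srebf1 points of DIO-R lie above all Lean points, from -1.51 to -0.84 against -2.06 to -1.58; in the other 9 genes every pair of groups overlaps.

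Srebf1 stood lowest in Lean and highest in DIO-R. Its probe lies on chromosome 11 at positions 60012664 to 60012723 of build mm9. The lowest, median and highest log2 levels were -2.06, -1.79 and -1.58 in Lean, -1.95, -1.66 and -1.24 in DIO, and -1.51, -1.13 and -0.84 in DIO-R. All 8 DIO-R arrays lay above all 7 Lean arrays, as in 0.188% of all genes that were higher in DIO-R without overlap, while DIO overlapped both other groups. Groups that do not overlap in either direction were seen in 0.305% of all genes for DIO-R against Lean, 0.12% for DIO against Lean and 0.0886% for DIO-R against DIO.

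Srebf1 was 1.59-fold higher in DIO-R than in Lean, a log2 difference of 0.67 ± 0.11 (SE, n = 8 and 7, limma adjusted p = 0.00602), with a 95% confidence interval of 0.44 to 0.89. The difference was 0.76, 0.76 and 0.41 within slides 1, 2 and 3. Against DIO the log2 difference was 0.49 ± 0.10 (SE, n = 8 and 8, limma adjusted p = 0.0856), and all 8 DIO-R arrays lay above the DIO mean. Within the slides it was 0.65, 0.61 and 0.15, smallest on the third slide. DIO against Lean gave 0.17 ± 0.11 (SE, n = 8 and 7, limma adjusted p = 0.684), an interval from -0.05 to 0.39 that holds 0. Between the groups lay 69.0% of the variance of Srebf1 over the 23 arrays, against 2.24% to 41.7% for the other 9 genes.

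The Srebf1 difference between DIO-R and Lean passed the test without any 1 of the 23 arrays, with values from 0.62 to 0.72. It no longer passed with the mean levels of differentiated and basal keratinocyte markers as covariates (0.54, limma adjusted p = 0.055) or with those of skeletal muscle and adipocyte markers (0.54, limma adjusted p = 0.0692), fits chosen after seeing the data. The difference from DIO kept its direction in 15 of 15 other settings, from 0.34 to 0.53, and passed in 2 of them, with adjusted p from 0.0286 to 0.929. It passed in 2 of 23 fits with 1 array left out. These were the fits without DIO replicate 2 (0.55, limma adjusted p = 0.0304) and without DIO-R replicate 2 (0.55, limma adjusted p = 0.0369); the 2 settings were array weights (0.51, limma adjusted p = 0.0286) and the authors' value table (0.43, limma adjusted p = 0.0431).

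**Figure D2:**
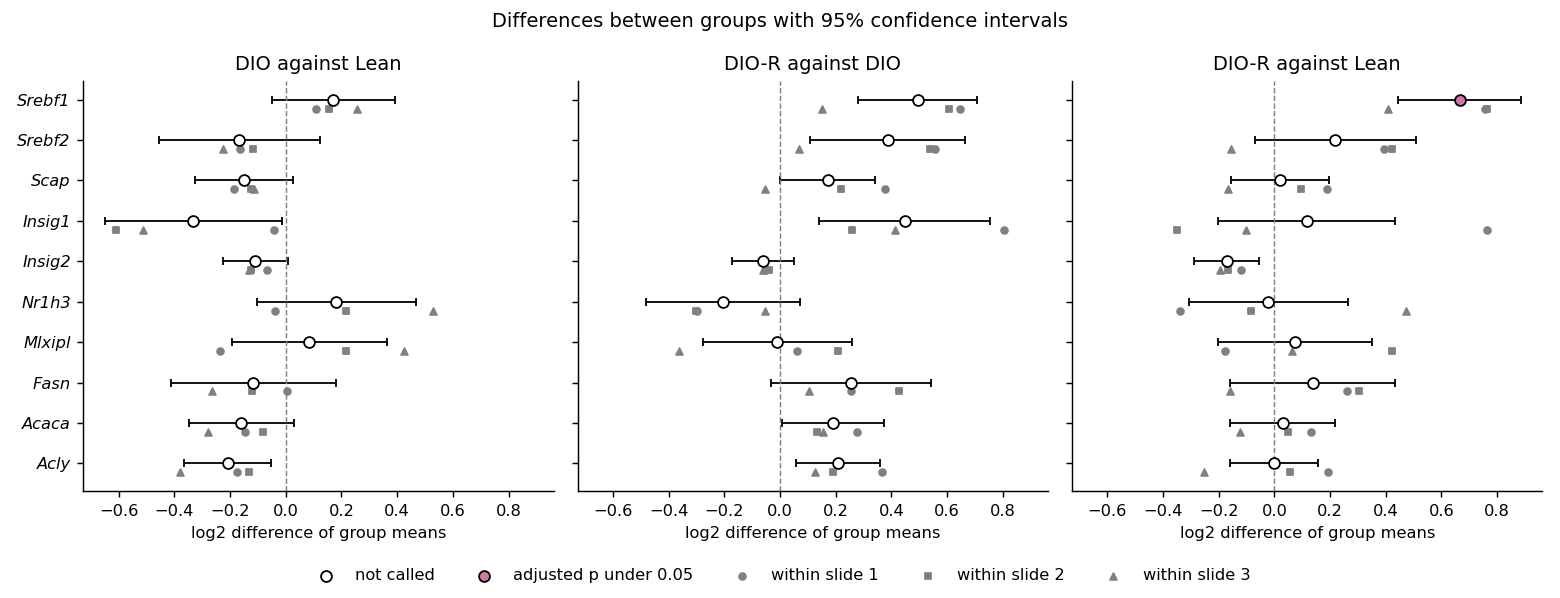
Log2 difference of group means (horizontal axes) for each gene in the 3 comparisons, with 95% confidence intervals as bars; grey symbols are the differences within slides 1, 2 and 3. The filled point is Srebf1 in DIO-R against Lean, 0.67 with an interval of 0.44 to 0.89, the one difference past an adjusted p of 0.05.

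Srebf2, whose protein directs cholesterol synthesis, had its lowest mean in DIO and its highest in DIO-R. Its log2 levels had a lowest, median and highest value of -0.15, 0.53 and 0.77 in Lean, -0.26, 0.24 and 0.59 in DIO, and 0.22, 0.63 and 0.94 in DIO-R. The 3 ranges overlap. DIO-R was 0.39 ± 0.13 above DIO (log2, SE, limma adjusted p = 0.463), a difference of 0.56, 0.54 and 0.07 within slides 1, 2 and 3. The interval from 0.11 to 0.66 does not hold 0, but the difference did not pass over all genes. DIO differed from Lean by -0.17 (interval -0.45 to 0.12) and DIO-R from Lean by 0.22 (interval -0.07 to 0.51). A second, dimmer Srebf2 probe, on the same chromosome 15, followed the first over the 23 arrays (r = 0.79) and gave 0.20 for DIO-R against DIO.

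The upstream sequences of Srebf1, Insig1, Srebf2 and Fasn are shown because their products form the loop of SREBP, its anchor and its target, and SREBPs are known to act on their promoters. Each is the 250 bases before a RefSeq start in build GRCm38.p6, 5′ to 3′ on the strand of the gene. Capitals mark 4 motifs, searched on both strands: the sterol element core TCACCC, the E-box CACGTG, the CCAAT box CCAAT and the GC box GGGCGG. Srebf1 has 3 annotated starts and the one farthest downstream is printed. The windows are chr11:60210472-60210721 (minus strand) for Srebf1, chr5:28071162-28071411 (plus strand) for Insig1, chr15:82147019-82147268 (plus strand) for Srebf2 and chr11:120824548-120824797 (minus strand) for Fasn.

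Srebf1: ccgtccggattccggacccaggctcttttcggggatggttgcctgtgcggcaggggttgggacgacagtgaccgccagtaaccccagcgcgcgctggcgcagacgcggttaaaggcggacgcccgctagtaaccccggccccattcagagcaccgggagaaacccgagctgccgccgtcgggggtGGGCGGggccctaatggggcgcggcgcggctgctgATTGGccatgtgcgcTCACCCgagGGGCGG
Insig1: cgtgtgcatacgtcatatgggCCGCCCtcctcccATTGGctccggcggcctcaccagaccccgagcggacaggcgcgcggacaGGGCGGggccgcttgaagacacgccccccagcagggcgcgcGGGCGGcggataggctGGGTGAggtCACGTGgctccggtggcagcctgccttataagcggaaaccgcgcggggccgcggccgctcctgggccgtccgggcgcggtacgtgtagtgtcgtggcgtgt
Srebf2: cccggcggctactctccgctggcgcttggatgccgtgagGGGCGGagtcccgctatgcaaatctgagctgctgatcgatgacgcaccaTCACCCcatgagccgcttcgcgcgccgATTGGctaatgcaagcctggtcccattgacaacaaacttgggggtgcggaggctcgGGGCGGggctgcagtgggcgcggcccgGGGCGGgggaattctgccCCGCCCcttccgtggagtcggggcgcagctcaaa
Fasn: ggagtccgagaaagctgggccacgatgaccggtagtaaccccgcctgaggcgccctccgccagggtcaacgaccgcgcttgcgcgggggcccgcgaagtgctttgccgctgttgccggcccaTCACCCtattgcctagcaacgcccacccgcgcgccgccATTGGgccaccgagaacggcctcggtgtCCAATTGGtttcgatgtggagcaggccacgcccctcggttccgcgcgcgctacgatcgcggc

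In the printed Srebf1 window a CCAAT box begins 30 bases, a sterol element core 15 bases and a GC box 6 bases before the start. The other 2 Srebf1 windows hold no sterol element core. In Insig1 the core begins 110 bases before the start and the E-box 101 bases before it. In Srebf2 the core lies 162 and a CCAAT box 135 bases before the start, and in Fasn the core lies 128 bases before it with CCAAT boxes at 90, 62 and 59, the last 2 sharing bases. Over the 17 windows of the 10 genes, 8 windows of 6 genes hold the sterol element core, which 13.8% of all 32851 windows of this length hold. No window of Acaca, Acly, Scap or Mlxipl holds this core. The E-box lies in 3 of the 17 windows (6.02% of all windows), the CCAAT box in 7 (33.8%) and the GC box in 9 (32.7%). Starts of one gene can lie close together, so their windows are not independent, and a match of letters is not a measured binding site.

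Scap, the escort of SREBPs to the Golgi, had its lowest mean in DIO and nearly equal means in Lean and DIO-R. Its probe on chromosome 9 (positions 110287280 to 110287339, mm9) read a lowest, median and highest log2 level of 3.79, 3.94 and 4.27 in Lean, 3.72, 3.82 and 4.04 in DIO, and 3.80, 4.00 and 4.34 in DIO-R. All pairs of groups overlap. The differences were -0.15 for DIO against Lean, 0.17 ± 0.08 for DIO-R against DIO (SE, limma adjusted p = 0.511) and 0.02 for DIO-R against Lean, with an interval from -0.15 to 0.20 in the last. Within slide 3 the difference of DIO-R from DIO was -0.05.

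Insig1, the anchor that SREBPs themselves induce, showed the largest mean difference of the 10 genes between DIO and Lean. The lowest, median and highest log2 levels were -1.68, -1.13 and -0.82 in Lean, -1.77, -1.51 and -1.08 in DIO, and -1.77, -1.07 and -0.57 in DIO-R, from a probe on chromosome 5 (positions 28404246 to 28404305, mm9). Most DIO arrays were low, but the groups overlap. Lean replicates 4, 5, 7 and 9 (-1.41, -1.13, -1.68 and -1.31) lay within the DIO range. So did DIO-R replicates 4, 7 and 8 (-1.08, -1.23 and -1.12), and DIO-R replicate 5 lay at -1.77. DIO was 0.33 ± 0.15 below Lean (log2, SE, limma adjusted p = 0.531) and DIO-R was 0.45 ± 0.15 above DIO (SE, limma adjusted p = 0.449). Neither passed. DIO-R against Lean gave 0.12 over all arrays, but 0.76 within slide 1, -0.35 within slide 2 and -0.10 within slide 3.

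Insig2, the anchor that SREBPs do not induce, was the least variable of the 10 genes, with 0.45 log2 units from its lowest to its highest array. The lowest, median and highest levels were 2.12, 2.21 and 2.33 in Lean, 1.89, 2.11 and 2.23 in DIO, and 1.88, 2.07 and 2.12 in DIO-R, from a probe on chromosome 1 (positions 123201085 to 123201144, mm9). The highest DIO-R array lay at the level of the lowest Lean array. DIO-R was 0.17 ± 0.06 below Lean (log2, SE, limma adjusted p = 0.315), lower in 8 of 8 arrays than the Lean mean and within each slide (-0.12, -0.17 and -0.19), without passing. A second probe, annotated to another transcript of the gene, gave -0.26 ± 0.09 for DIO-R against Lean and -0.24 for DIO against Lean, also without passing.

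Nr1h3, the gene of LXR-alpha, differed little between the group means and widely within Lean. Its lowest, median and highest log2 levels were -0.14, 0.27 and 1.04 in Lean, 0.09, 0.53 and 0.69 in DIO, and 0.03, 0.28 and 0.66 in DIO-R (chromosome 2, positions 91024250 to 91024309, mm9). The groups overlap throughout. The differences were 0.18 ± 0.14 for DIO against Lean, -0.20 ± 0.13 for DIO-R against DIO and -0.02 ± 0.14 for DIO-R against Lean (SE, limma adjusted p = 0.765, 0.599 and 0.973). Within slides, DIO against Lean ran from -0.04 to 0.53. A second Nr1h3 probe beside the first gave the same picture (r = 0.94 over the 23 arrays).

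For Mlxipl, the gene of ChREBP, the 2 probes of the array did not follow each other (r = -0.11 over the 23 arrays). The leading probe, on chromosome 5 at positions 135614195 to 135614252 of mm9, had a lowest, median and highest log2 level of 0.72, 1.12 and 1.53 in Lean, 0.94, 1.20 and 1.46 in DIO, and 0.80, 1.25 and 1.62 in DIO-R. Its differences were 0.08, -0.01 and 0.07 in the 3 comparisons, with standard errors of 0.13. The other probe, at positions 135613705 to 135613764, had medians of 0.25 in Lean, 0.41 in DIO and 0.02 in DIO-R. There DIO-R was 0.51 ± 0.26 below DIO (log2, SE, limma adjusted p = 0.521), and the groups overlap.

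**Figure D3:**
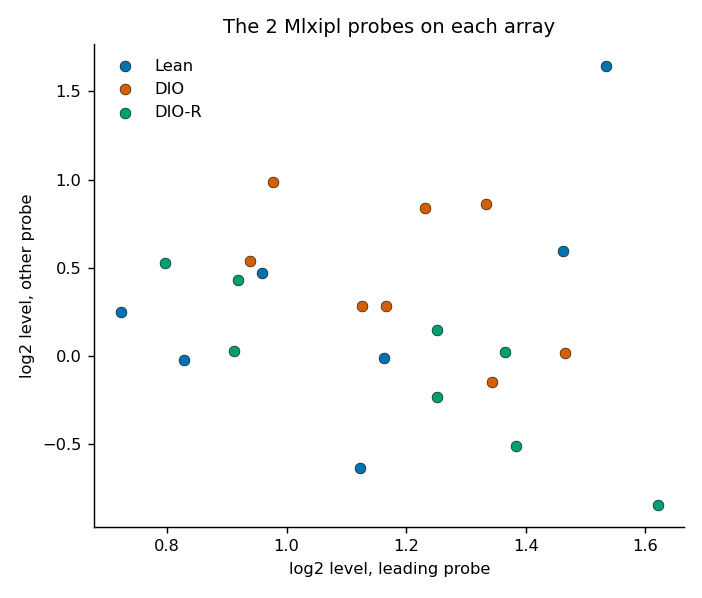
Log2 level of the leading Mlxipl probe (horizontal axis) against that of the other Mlxipl probe (vertical axis) on each of the 23 arrays, coloured by group. The points do not line up (r = -0.11); the array highest by the leading probe, a DIO-R array at 1.62, is the lowest by the other, at -0.85.

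The letters of the leading Mlxipl probe are shown because they bear on what it reads. The 5 genes or unnamed probes whose levels were most like it over the 23 arrays, with r from 0.94 to 0.96, all hold the same run of 9 bases. Among them are Mtif2, a mitochondrial translation factor, and Csf3r, a receptor of granulocytes. Capitals mark the run, within 28 bases of each probe, 5′ to 3′ on the probe.

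Mlxipl: atggtgatgcacaCCTTTAATCccagta
Mtif2: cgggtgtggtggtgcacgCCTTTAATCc
Csf3r: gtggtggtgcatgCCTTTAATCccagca

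This run lies in 22 of the 28224 leading probes of the genes kept (0.0779%) and in 11 of the 50 that were most like Mlxipl (22%). It was picked as the longest run of the Mlxipl probe that its 5 most alike probes all hold. Those 5 are counted in both numbers, so the shares describe the run and do not test it. For the other 9 genes the longest run shared with the 5 most alike probes was 3 bases. The part of the shared letters in the Mlxipl values was not tested, and its 2 probes are given side by side for that reason.

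Fasn, the multi-enzyme that builds palmitate, passed in none of the 3 comparisons. The lowest, median and highest log2 levels were -1.66, -1.28 and -0.88 in Lean, -2.02, -1.25 and -1.05 in DIO, and -1.45, -1.07 and -0.87 in DIO-R, from a probe on chromosome 11 (positions 120667666 to 120667725, mm9). DIO replicates 6 and 8 lay low, at -2.02 and -1.75, and the groups overlap. DIO-R was 0.25 ± 0.14 above DIO (log2, SE, limma adjusted p = 0.540), and the difference had 1 sign within all 3 slides (0.26, 0.43 and 0.11). DIO against Lean gave -0.12, with an interval from -0.41 to 0.18, and DIO-R against Lean 0.14, from -0.16 to 0.43.

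Acaca encodes acetyl-CoA carboxylase 1, which makes malonyl-CoA for Fasn. Its lowest, median and highest log2 levels were 2.79, 3.07 and 3.43 in Lean, 2.64, 2.90 and 3.17 in DIO, and 2.96, 3.16 and 3.28 in DIO-R (chromosome 11, positions 84215093 to 84215152, mm9). The DIO mean was the lowest and 8 of 8 DIO-R arrays lay above it. The differences were -0.16 ± 0.09 for DIO against Lean and 0.19 ± 0.09 for DIO-R against DIO (SE, limma adjusted p = 0.641 and 0.503). The 3 further Acaca probes had the same signs in both comparisons. Of these, 1 is shifted by a single base from the first and followed it closely over the arrays (r = 0.95). The others were much dimmer and followed it less (r = 0.53 and 0.44). These dimmer probes gave -0.10 ± 0.18 and -0.05 ± 0.17 for DIO against Lean (SE). For DIO-R against DIO they gave 0.11 ± 0.18 and 0.21 ± 0.16. By the first probe DIO-R and Lean differed by 0.03, within an interval from -0.16 to 0.22.

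Acly, ATP citrate lyase, supplies the cytosolic acetyl-CoA for both fatty acid and cholesterol synthesis. The lowest, median and highest log2 levels were 3.75, 3.95 and 4.20 in Lean, 3.61, 3.74 and 3.98 in DIO, and 3.75, 3.97 and 4.20 in DIO-R (chromosome 11, positions 100337674 to 100337733, mm9). DIO lay low, with 7 of its 8 arrays under the Lean mean, and the ranges overlap. DIO was 0.21 ± 0.08 below Lean (log2, SE, limma adjusted p = 0.401) and DIO-R was 0.21 ± 0.07 above DIO (SE, limma adjusted p = 0.468). Each difference kept its sign within the 3 slides, and the second Acly probe gave -0.24 and 0.32. None of these passed over all genes. Between DIO-R and Lean the Acly means were nearly equal, with an interval of the difference from -0.16 to 0.16.

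Over the 10 genes, 7 had a lower mean in DIO than in Lean, where 58.9% of all genes did. The difference kept 1 sign within all 3 slides for 7 of the 10 genes in DIO against Lean (36.3% of all genes), for 8 in DIO-R against DIO (40.1%) and for 2, Srebf1 and Insig2, in DIO-R against Lean (31%). The median of the 10 log2 differences was -0.13 in DIO against Lean (all genes -0.04), 0.20 in DIO-R against DIO (all genes 0.01) and 0.05 in DIO-R against Lean (all genes -0.02). The first and the second comparison share the DIO arrays and are given side by side, not as support for each other.

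The genes also varied from array to array within groups, and this was measured after removing each group's mean. Of the 45 pairs of genes, 19 correlated at an adjusted p under 0.05 (permutation of arrays within groups, 100000 resamples, two-sided, Benjamini-Hochberg over 45 pairs), 11 of them positively. Srebf2 took part in 7 of these pairs, Fasn and Acly in 6 each, and Insig1 and Mlxipl in none. For Mlxipl this holds for the leading probe only, which the other Mlxipl probe did not follow. Srebf2 varied with Scap (r = 0.80, Spearman rho = 0.88, adjusted permutation p = 0.0003; 0.91, 0.73 and 0.83 within slides 1, 2 and 3; 0.84 without the 2 arrays farthest from the Srebf2 median). It did so as well with Fasn (r = 0.78, rho = 0.75, adjusted permutation p = 0.00063; 0.66 without the 2 farthest arrays). Fasn and Acaca were correlated too (r = 0.78, rho = 0.73, adjusted permutation p = 0.0003; 0.68, 0.82 and 0.97 within slides; 0.66 without the 2 farthest arrays).

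Nr1h3 and Acly varied in opposite directions (r = -0.81, rho = -0.80, adjusted permutation p = 0.0003), with -0.88 in Lean, -0.77 in DIO and -0.78 in DIO-R, and -0.75 without the 2 farthest arrays. Srebf1 correlated with Acly (r = 0.62, rho = 0.70, adjusted permutation p = 0.0087) and with Srebf2 (r = 0.60, rho = 0.60, adjusted permutation p = 0.00994), and its correlation with Fasn passed by Spearman's rho (0.56, adjusted permutation p = 0.0176) and with slide means removed (r = 0.60, adjusted permutation p = 0.00921) but not by Pearson's r (0.51, adjusted permutation p = 0.0503). By Spearman's rho 26 of the 45 pairs passed. All 19 kept their sign within each slide and without the 2 farthest arrays. They kept it within each group in 16 pairs, the exceptions being Srebf2 with Acaca, Nr1h3 with Acaca and Acaca with Acly, each near 0 or turned in DIO-R. With slide means removed too, 18 of the 19 passed.

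Levels of cell type markers varied over the same arrays. Of 100 correlations of the 10 genes with the mean log2 levels of 10 marker lists, 42 passed (adjusted over the 100, same permutation test). In either direction, 7 of the 10 genes passed with the taste cell markers, 7 with the basal keratinocyte and 7 with the skeletal muscle markers. Srebf1 was among those of the basal keratinocyte markers (r = 0.56, rho = 0.62, adjusted permutation p = 0.0315). The pairs that follow are examples. Srebf1 went with the taste cell markers (r = 0.74, rho = 0.83, adjusted permutation p = 0.0015; 0.65 in Lean, 0.86 in DIO and 0.71 in DIO-R; 0.71 without the 2 farthest arrays) and against the skeletal muscle markers (r = -0.69, rho = -0.74, adjusted permutation p = 0.00557; -0.65 without them). Srebf2 went with the basal keratinocyte markers (r = 0.81, rho = 0.82, adjusted permutation p = 0.001; 0.82, 0.92 and 0.70 within slides), and so did Fasn (r = 0.79, rho = 0.73, adjusted permutation p = 0.00233). Acly went with the differentiated keratinocyte markers (r = 0.70, rho = 0.75, adjusted permutation p = 0.00517). Insig2 went with the adipocyte markers (r = 0.70, rho = 0.69, adjusted permutation p = 0.00517) and Nr1h3 with the skeletal muscle markers (r = 0.66, rho = 0.65, adjusted permutation p = 0.0107). For Nr1h3 and muscle, r was 0.74, 0.086 and 0.91 within slides 1, 2 and 3, and 0.37 in DIO. Nr1h3 also went against the differentiated keratinocyte markers (r = -0.67, rho = -0.69, adjusted permutation p = 0.0107). One array, Lean replicate 7, was the lowest of its group in 6 of the 10 genes and the highest in 3, and among the Lean arrays it had the lowest mean of the differentiated keratinocyte markers and the highest means of the adipocyte and muscle markers.

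**Figure D4:**
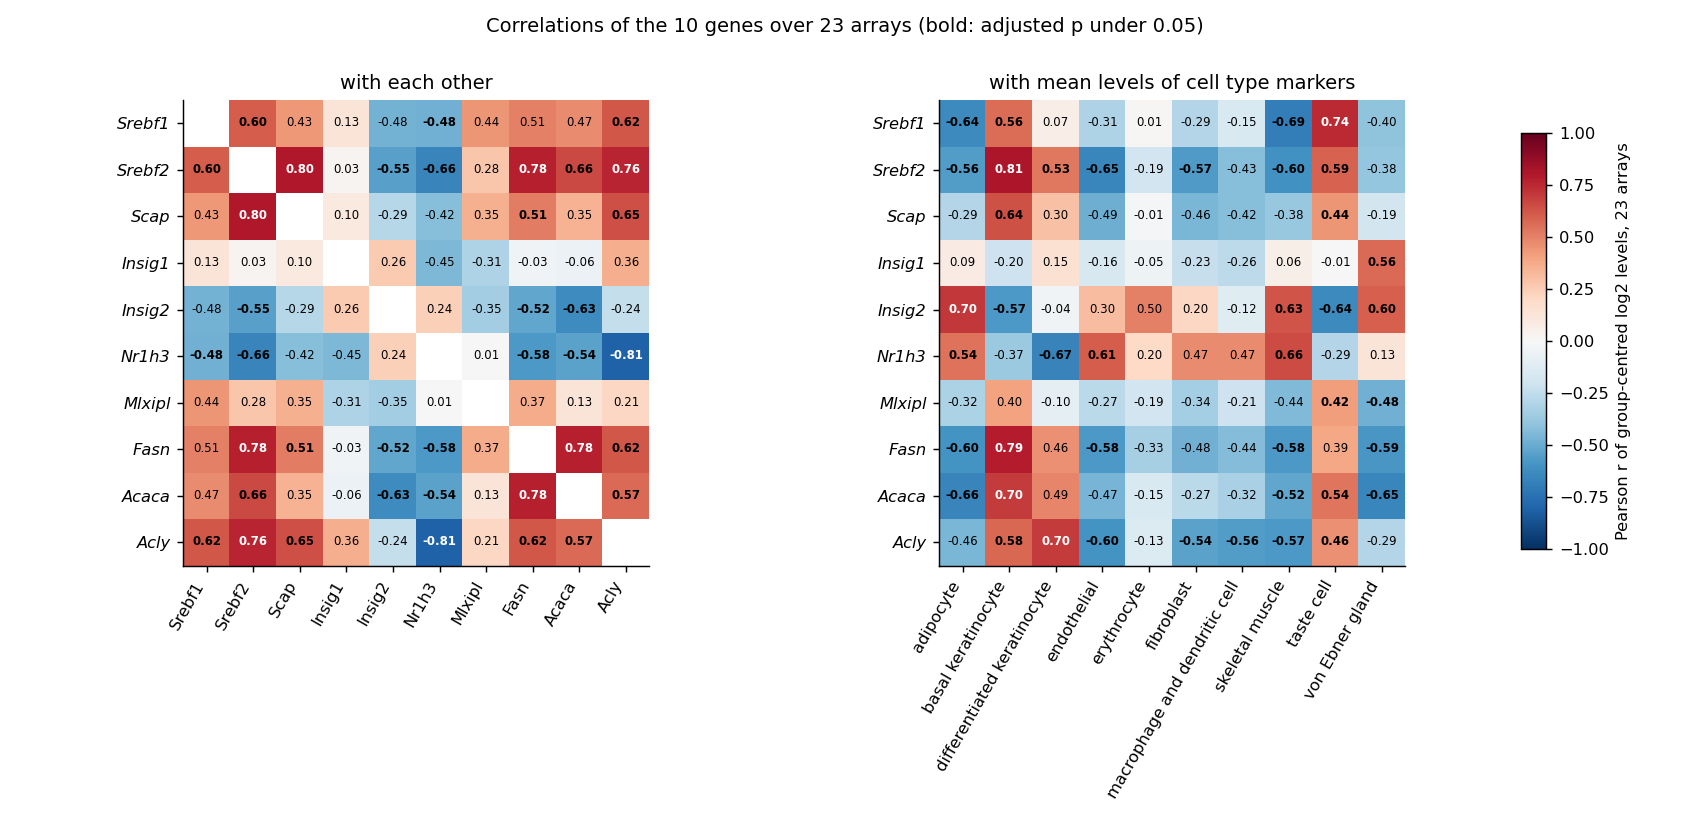
Pearson correlations over 23 arrays, after removing group means, of the 10 genes with each other (left) and with the mean log2 level of 10 cell type marker lists (right); bold values have an adjusted p under 0.05. Srebf2, Fasn, Acaca and Acly correlate with each other, from 0.57 to 0.78, and Nr1h3 runs against them. Insig1 and Mlxipl, the latter by its leading probe, have no bold value on the left.

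Mean marker levels also differed between the groups. Beside them, the median difference of all genes was -0.04 in DIO against Lean, 0.01 in DIO-R against DIO and -0.02 in DIO-R against Lean. The 23 measured differentiated keratinocyte markers all had lower means in DIO than in Lean (median -0.54), beside 58.9% of all genes. All had higher means in DIO-R than in DIO (median 0.44). In either comparison 0 passed the limma test. At an unadjusted p under 0.05 there were 14 and 5, beside 4.9% and 5.94% of all genes in those directions. The log2 of the summed level of these markers ran from 10.3 to 11.8 in Lean, 9.87 to 11.3 in DIO and 10.4 to 11.4 in DIO-R. All 10 basal keratinocyte markers had higher means in DIO-R than in either other group (median 0.21 against DIO and 0.15 against Lean), with summed levels of 8.87 to 9.39 in Lean, 8.48 to 9.47 in DIO and 9.10 to 9.53 in DIO-R. All 18 skeletal muscle markers had lower means in DIO-R than in DIO (median -0.60; summed level 9.36 to 11.4 in Lean, 9.90 to 11.2 in DIO and 8.36 to 10.9 in DIO-R). Of 15 adipocyte markers 14 did (median -0.68, summed level 4.98 to 6.88, 5.00 to 6.10 and 3.95 to 5.76 in the same order). Of the basal keratinocyte, skeletal muscle and adipocyte markers 0 passed the limma test in these comparisons. With the mean levels of differentiated and basal keratinocyte markers as covariates, fits chosen after seeing the data, several differences between DIO-R and DIO were smaller: 0.13 for Srebf2, 0.067 for Scap, 0.0048 for Fasn, 0.047 for Acaca, 0.087 for Acly and -0.0093 for Nr1h3. Those of Srebf1 and Insig1 were 0.40 and 0.46. In DIO against Lean the same fit gave -0.045 for Srebf2, -0.020 for Fasn, -0.087 for Acaca, -0.096 for Acly and -0.23 for Insig1. With the skeletal muscle and adipocyte markers as covariates, DIO-R against DIO gave 0.24 for Srebf2, 0.071 for Fasn, 0.047 for Acaca and -0.085 for Nr1h3. That fit also gave 0.37 for Srebf1, 0.48 for Insig1, 0.14 for Scap and 0.16 for Acly. With the erythrocyte markers the values were 0.073 for Fasn and -0.099 for Nr1h3. They were 0.50 for Srebf1, 0.42 for Insig1, 0.28 for Srebf2, 0.17 for Scap, 0.14 for Acaca and 0.17 for Acly. In DIO against Lean the muscle and adipocyte fit gave -0.165 for Srebf2, -0.14 for Fasn, -0.20 for Acaca, -0.19 for Acly and -0.32 for Insig1. The part of these cell types in the differences was not tested beyond these fits.

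Macrophage and dendritic cell markers had higher means in DIO than in Lean in 14 of 16 (median 0.27; summed level 5.11 to 5.75 in Lean, 5.21 to 5.97 in DIO and 5.26 to 5.68 in DIO-R). Among them Aif1, a calcium-binding protein of macrophages, rose by 0.95 ± 0.13 (log2, SE, limma adjusted p = 0.00775), the 1 gene of all that passed in that comparison. Fibroblast markers had higher means in DIO than in Lean in 11 of 12 (median 0.30) and lower means in DIO-R than in DIO in 12 of 12 (median -0.22), with 0 past the test. Markers of von Ebner glands, which open into the trench of the papilla, had lower means in DIO-R than in DIO in 12 of 13 (median -0.36), with 0 past the test. Taste cell markers had medians of -0.12, 0.17 and 0.04 in the 3 comparisons over 16 genes, with 0 past the test. Erythrocyte markers (6 measured) had higher means in DIO than in Lean in 6 of 6 (median 1.02) and lower means in DIO-R than in DIO in 6 of 6 (median -1.05). By Pearson's r, 0 of the 10 genes correlated with the erythrocyte markers at an adjusted p under 0.05; by Spearman's rho Fasn did (rho = -0.51, adjusted permutation p = 0.044).

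The other genes of the pathway were followed in 5 lists. Of 24 genes of SREBP processing and turnover, such as the site-1 protease gene Mbtps1 and the ubiquitin ligase gene Rnf145, 0 passed in any comparison, with medians of -0.08, 0.08 and 0.02 beside the all-gene medians of -0.04, 0.01 and -0.02. Rnf145 had the smallest unadjusted p of the list in DIO-R against DIO, with a difference of 0.35 ± 0.10 (SE, limma adjusted p = 0.388). Lpin1, a phosphatidate phosphatase that also restrains nuclear SREBP, was 0.89 ± 0.31 below Lean in DIO-R (log2, SE, limma adjusted p = 0.370). Neither passed.

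Of 21 measured partners and targets of LXR and ChREBP, 0 passed in any comparison. Txnip, a ChREBP target that restrains glucose uptake, came closest, with -0.52 ± 0.10 in DIO-R against DIO (SE, limma adjusted p = 0.0505) and -0.46 ± 0.10 against Lean (SE, limma adjusted p = 0.103). The LXR target Abca1, a cholesterol exporter, differed by 0.29 ± 0.10 between DIO-R and Lean (SE, limma adjusted p = 0.344). Lpcat3, of the same list, went the other way there (-0.22 ± 0.06, SE, limma adjusted p = 0.195). In that comparison 7 of the 21 had higher and 14 lower means in DIO-R (median -0.06, all genes -0.02).

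Of 40 measured genes of fatty acid and triglyceride synthesis, Scd2, a stearoyl-CoA desaturase, rose in DIO-R against both other groups. Its lowest, median and highest log2 levels were 3.37, 3.63 and 3.98 in Lean, 3.05, 3.72 and 4.03 in DIO, and 4.21, 4.38 and 4.64 in DIO-R. DIO-R thus lay above both without overlap. In either direction, 0.0886% of all genes had no overlap of DIO-R with DIO and 0.305% none with Lean. The difference was 0.74 ± 0.11 from DIO (SE, limma adjusted p = 0.00372) and 0.71 ± 0.11 from Lean (SE, limma adjusted p = 0.00602). No other gene of the list passed. In DIO against Lean 30 of the 40 had lower means (median -0.09), beside 58.9% of all genes. Among them was Acss2, which makes acetyl-CoA from acetate (-0.34 ± 0.09, limma adjusted p = 0.193).

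The SREBP-2 targets of cholesterol synthesis and uptake had the median farthest from 0 of the 5 lists in DIO against Lean. All 27 had lower means in DIO (median -0.40), beside 58.9% of all genes. Of the 27, 18 were lower at an unadjusted p under 0.05, beside 4.9% of all genes, and 0 passed the limma test. The closest were Npc1, which exports cholesterol from lysosomes (-0.34 ± 0.07, limma adjusted p = 0.110), and Mvd, mevalonate diphosphate decarboxylase (-0.65 ± 0.14, limma adjusted p = 0.110). In DIO-R against DIO 23 of 27 had higher means (median 0.37, all genes 0.01). Of these, 16 had an unadjusted p under 0.05, beside 5.94% of all genes in that direction, and 0 passed the test. The differentiated keratinocyte markers moved the same way (medians -0.54 in DIO against Lean and 0.44 in DIO-R against DIO). Their part in this list was not tested. In DIO-R against Lean the median was -0.05, and Npc1 fell by 0.36 on the log2 scale (SE 0.07, limma adjusted p = 0.0426). The Npc1 median was -0.33 in Lean, -0.72 in DIO and -0.67 in DIO-R. Its ranges in DIO (-0.83 to -0.47) and in DIO-R (-0.97 to -0.46) both lay below the Lean range (-0.42 to -0.23). Groups without overlap, in either direction, were seen in 0.12% of all genes for DIO against Lean and 0.305% for DIO-R against Lean.

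Genes of fatty acid oxidation and PPAR targets, the opposing pathway, fell in DIO-R where they passed. Of 24 genes, 4 passed as lower than in DIO, where 0.0602% of all genes passed in either direction. Against Lean 6 passed as lower, where 0.128% of all genes passed, and 0 passed as higher in either comparison. Higher means in DIO-R were seen in 4 of the 24 against DIO and in 1 against Lean. Angptl4, an inhibitor of lipoprotein lipase, fell by 1.90 against DIO (SE 0.17, limma adjusted p = 4.1e-06), from a median of 4.54 to 2.57. Cpt1a, which lets fatty acids into mitochondria and is blocked by the malonyl-CoA that Acaca makes, fell by 0.49 (SE 0.07, limma adjusted p = 0.00369), from 3.09 to 2.57. In DIO against Lean 0 of the 24 passed and the median was -0.02.

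**Figure D5:**
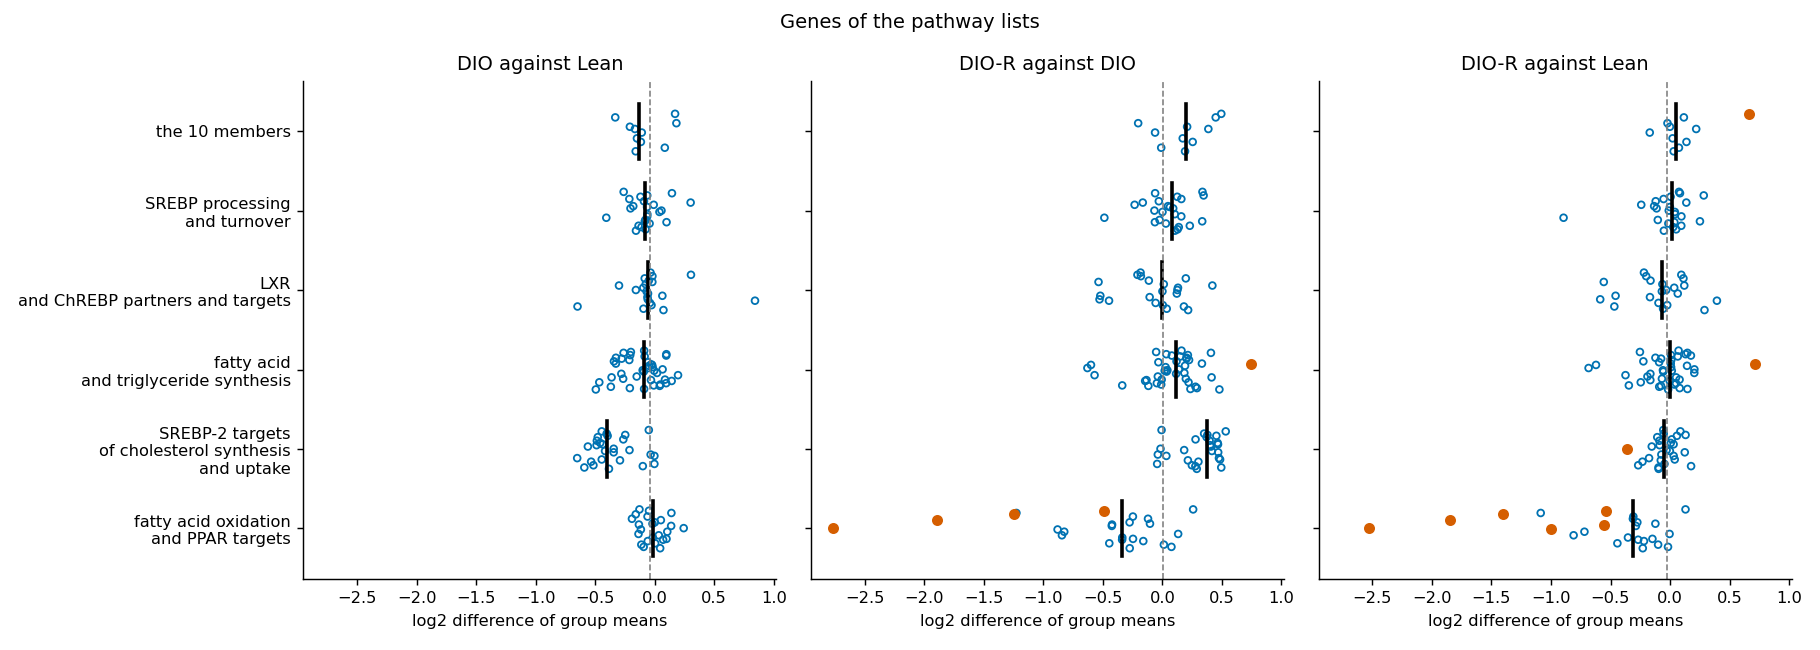
Log2 differences of group means (horizontal axes) of the 10 genes and of the genes of 5 pathway lists in the 3 comparisons; filled points have an adjusted p under 0.05, black bars are list medians and the dashed line is the median of all 28224 genes. The SREBP-2 targets shift to a median of -0.40 in DIO against Lean and 0.37 in DIO-R against DIO, and the filled points of fatty acid oxidation all lie below 0.

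The genes whose 23 values were most like a given gene were ranked by Pearson's r over all arrays, with group differences left in. For Srebf1 they included Bhlhe40 (0.90), Per2 (0.87), Dnaja1 (0.86) and Scd2 (0.86). Bhlhe40 and Per2 encode repressors of the circadian clock, and Scd2 is the desaturase described above. For Fasn they were Purb (0.88), Bcl11b (0.87), Pkp1 (0.85), Arhgef4 (0.85) and Rab38 (0.85), of which Pkp1 encodes a desmosome protein of keratinocytes. For Nr1h3 they were BC002189 (0.92), Svil (0.91), Vegfa (0.91), Fgfr4 (0.89) and Sirt3 (0.88). The named genes among the 5 most like Insig1 were Fam210b (0.76), Acat2 (0.76) and Syp (0.74), and Acat2 is a thiolase of the SREBP-2 target list.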

How the data were processed

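Labelled RNA of 23 samples was read on 1-colour Agilent arrays, 1 array a sample. Per the file headers, the authors' deposited intensity of a spot was read with Agilent Feature Extraction 10.10.1.1, with background and a spatial trend taken off array by array; probe positions are on mm9. Each intensity was turned here into log2 minus the 75th percentile of its array over spots that are not controls. Outlier spots were dropped and spots of a probe averaged. For each gene the probe of highest mean log2 level was used, and genes well above background on at least 7 of 23 arrays were kept. Groups were compared with limma (version 3.58.1, run in R 4.3.3; two-sided moderated test of lmFit and eBayes, a mean per group over all 23 arrays, 20 residual degrees of freedom), with Benjamini-Hochberg adjustment over 28224 genes. Intensities carry no read depth, and the number of arrays limits the precision.

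The authors' deposited value table holds 35829 probes on a log2 scale with array medians from 7.63 to 7.64; how it was made is not given in the sources used here beyond limma, named in the submitters' processing notes. It holds the leading probes of 9 of the 10 genes, Fasn aside, and served as an alternative. Other alternatives were normexp background correction, quantile normalization, other filters on dim probes, the mean of a gene's probes, each other probe, slide or replicate number as a block, only the 2 groups compared, array weights, other eBayes settings and leaving out each array. The scan batch equals the slide. Correlations used Python 3.11.15 with numpy 2.4.6. The upstream sequences come from RefSeq (GRCm38.p6), and probe letters from the scanner files. The scripts were tested on simulated data.

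The 10 genes and all lists were chosen with earlier results of these data known. Named are the 10 genes, genes with the 3 smallest unadjusted p-values of a pathway list in a comparison, the first 3 genes of a marker list, and the 5 genes most like Srebf1, Insig1, Fasn and Nr1h3. Mtif2 and Csf3r, among the 5 most like Mlxipl, were chosen after their values were seen. Some genes that the rule names are not reported here.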

Additional observations from a re-analysis of the deposited data

Results flagged for a closer look

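In 30 sets of values (10 genes in 3 groups), 1 array stood apart from its group by Dixon's criterion at the 95% level; chance sets off about 1 in 20 groups. It was the Nr1h3 level of DIO replicate 3, at 0.0881 on the log2 scale, the lowest of the 8 DIO arrays, with the next at 0.49 and a gap of 0.66 of the range of the group. The same array had the lowest means of the fibroblast and endothelial markers in DIO.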

How the results depend on the processing

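Srebf1 in DIO-R against Lean kept its direction in 15 of 15 settings (0.46 to 0.71) and passed in 12, with adjusted p from 0.00129 to 0.222. It did not pass with the keratinocyte covariates, with the muscle and adipocyte covariates, or with the replicate block (0.66, limma adjusted p = 0.222), so that 0 of the 10 genes passed there. With 1 array left out at a time 1 of the 10 passed in each fit. In DIO-R against DIO 1 of the 10 passed with the authors' value table or array weights, and 0 to 1 with 1 array left out. The covariates and the fit without DIO replicates 1 and 6 were chosen after seeing the data. The cause of these changes was not tested.

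The count of all genes past the threshold, 1 in DIO against Lean, was 2 with normexp background, 9 in the authors' value table, 3 with the slide as a block, 0 with the replicate block, 63 with array weights, 3 with trend and robust eBayes, 0 with the keratinocyte covariates, 7 with the muscle and adipocyte covariates and 27 without DIO replicates 1 and 6. Leaving out 1 array gave 1 to 37 (37 without DIO replicate 6, 17 without Lean replicate 7, 8 without DIO-R replicate 6, 3 without DIO replicate 3, 2 without DIO-R replicate 2 or 3). In DIO-R against DIO the count of 17 was 27 with quantile normalization, 26 in the authors' value table, 4 with the replicate block, 33 with array weights, 4 with the erythrocyte covariate, 10 with the muscle and adipocyte covariates and 10 without DIO replicates 1 and 6. Leaving out 1 array gave 11 to 24, with 11 without DIO replicate 1, 6 or 8 or DIO-R replicate 5 or 10. In DIO-R against Lean the count of 36 was 9 with the replicate block, 110 with array weights, 18 with the keratinocyte covariates, 14 with the muscle and adipocyte covariates and 58 without DIO replicates 1 and 6. Leaving out 1 array gave 26 to 64, with 64 without Lean replicate 3. Replicate numbers did not pair the samples: 4 of 18 same-numbered pairs correlated over 0.1 (range -0.37 to 0.33), and 4 of 23 arrays correlated best with their own number.

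Differences that changed sign had not passed. In DIO-R against Lean, Acly lay at 0.030 with quantile normalization, 0.024 in the authors' value table, 0.038 with the mean of probes, 0.060 with the replicate block, 0.0027 with array weights and 0.076 by its second probe. There Mlxipl lay at -0.15 with the mean of probes, -0.080 with the keratinocyte covariates and -0.38 by its second probe, and Acaca at -0.015 by its second probe. Nr1h3 lay at 0.0058 with the slide as a block and 0.071 with the muscle and adipocyte covariates, and Scap at -0.0036 with array weights. With the keratinocyte covariates Scap, Fasn and Acaca lay at -0.058, -0.016 and -0.040, and with the muscle and adipocyte covariates Fasn and Acaca at -0.070 and -0.15. In DIO against Lean, Nr1h3 and Mlxipl lay at -0.057 and -0.0096 with the keratinocyte covariates, and Fasn at 0.064 with the erythrocyte covariate. In DIO-R against DIO, Mlxipl lay at 0.0054 with the slide as a block, and Insig2 at 0.023 with the erythrocyte covariate and 0.011 with the muscle and adipocyte covariates. With 1 array left out, DIO-R against Lean ran from -0.026 to 0.069 for Scap, -0.10 to 0.097 for Nr1h3, -0.023 to 0.085 for Acaca and -0.036 to 0.038 for Acly, and DIO-R against DIO from -0.072 to 0.046 for Mlxipl. With slide means removed, 21 pairs of the 10 genes correlated in place of 19.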
